A study of Rattus norvegicus with 6 samples.

Results

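The genes described here are 42 chaperones, co-chaperones, chaperonin subunits and heat shock factors, taken by symbol from a table of read counts per gene in RSC96, a rat line of immortalised Schwann cells. Of these 42, 41 were listed among the 16849 genes of the table and 40 were tested among the 13018 genes with enough reads. The inducible HSP70 gene Hspa1a was not listed under that symbol, and Hspa1b was listed but had too few reads. Although the set is named for the cytosol, the products of Hspa9, Hspd1 and Hspe1 work in mitochondria, and they are treated as a group of their own below.

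Molecular chaperones bind unfolded proteins and help them to fold, to assemble or to reach the machinery that degrades them. HSP70 proteins hold and release their clients in a cycle that J-domain proteins start and that HSP110 and BAG proteins reset, HSP90 and its co-chaperones finish the folding of kinases and steroid receptors, and the ring-shaped CCT chaperonin folds actin and tubulin. Heat shock factor 1 raises the transcription of many of these genes when unfolded proteins build up in a cell. In Schwann cells, the glia that wrap peripheral nerve fibres, chaperones are best known for handling misfolded myelin proteins such as PMP22.

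The 6 libraries fell into 3 groups of 2. In the PVDF@PDA group, wild-type RSC96 cells were labelled as kept in hypoxia with a piezoelectric material. In the PCL@PDA group, the same line was labelled as kept in hypoxia with a material that is not piezoelectric. The Control group was labelled only as control. For both materials the hypoxia was modelled with medium conditioned by macrophages, and the time with the material is given as 24 hours. The labels do not say whether Control cells received such medium, so a difference from Control is one between whole conditions. The description of each PCL@PDA sample mentions PVDF@PDA, and grouping went by title and treatment field instead. Each group held 1 library of batch 1 (replicate 1) and 1 of batch 3 (replicate 3). Nothing says that the 2 libraries of a group came from separate cultures, so the spread between them may be technical. The p-values rest on that spread, mostly as pooled over many genes and less as seen in the gene itself.

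Library totals ran between 32760123 and 35389307 reads, so that 3 reads, used as the floor of detection per library, were worth 0.0848 to 0.0916 CPM, which are reads scaled to library size. PCL@PDA replicate 3 stood apart: a chi-square statistic per degree of freedom over all genes was 10.2 between the PCL@PDA pair, against 4.80 between the PVDF@PDA pair and 5.56 between the Control pair. From PVDF@PDA replicates 1 and 3 it was 4.42 and 5.28 to PCL@PDA replicate 1, and 12.5 and 12.8 to PCL@PDA replicate 3. PCL@PDA replicate 1 was thus about as near to the PVDF@PDA libraries as these were to each other. Schwann cell markers summed to 73.5 to 79.4 CPM in PVDF@PDA, 76.6 to 78.1 CPM in PCL@PDA and 72.5 to 74.8 CPM in Control, over 9 of 10 markers listed; most of this was Pmp22. These similar sums held genes that went opposite ways in the test described below. Pmp22 was called higher with both materials. Erbb3 was called lower with both, at -0.72 ± 0.14 log2 units with PVDF@PDA and -0.61 ± 0.14 with PCL@PDA. Egr2 was called higher with PCL@PDA (0.73 ± 0.23) and not with PVDF@PDA. Cdh19, which marks the early Schwann lineage, and Ngfr, the receptor of immature Schwann cells, had at most 4 reads in any library. Sox10 was not listed under that symbol. Macrophage markers summed to 8.5 to 8.97 CPM in PVDF@PDA, 7.33 to 8.77 CPM in PCL@PDA and 7.56 to 7.89 CPM in Control over 9 of 12 listed, with Ptprc at 0 in all libraries but Control replicate 3, where it had 1 read. Fibroblast markers summed to 204 to 216 CPM in PVDF@PDA, 211 to 220 CPM in PCL@PDA and 181 to 189 CPM in Control over 5 of 6 listed, higher with both materials. Most of this sum was Thy1, which passed the test described below with neither material. Col1a1 and Pdgfra were called higher with both, Col3a1 was called with neither, and Dcn had at most 1 read in any library. The macrophage sum was mostly Cd14, which was lower in every library with a material than in Control. Coro1a went the other way, at 1.58 to 1.97 CPM with a material against 0.832 and 0.9 CPM in Control. None of the 5 macrophage markers tested was called. The part of these markers in the differences below was not tested. In bulk RNA, fewer cells of a kind and less RNA per cell cannot be told apart.

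The constitutive HSP70 gene Hspa8 and its HSP110 partner Hsph1 rose with both materials, by 1.67-fold to 1.83-fold, and no other member moved by as much and passed the test. With PVDF@PDA, 12 of the 40 tested members differed from Control, 7 higher and 5 lower. These are 30% of the members, 17.5% higher and 12.5% lower, where 15.7% of all genes tested were called, 6.79% higher and 8.9% lower. With PCL@PDA, 18 members differed from Control, 12 higher and 6 lower. That is 45% of the members, 30% higher and 15% lower, where 20.1% of all genes were called, 8.77% higher and 11.3% lower. A gene was called when its adjusted p in edgeR's quasi-likelihood test, adjusted over all genes, was below 0.05. The shares of members and of all genes are not like for like, because intervals were narrow for more of the members. Between the materials, the whole confidence interval lay within 0.25 log2 units of no difference for 80% of members and 36.1% of all genes. How far this raised the share of members called was not tested. Members were also chosen with earlier results of these data known. The median log2 difference of the 40 members was 0.04 with PVDF@PDA and 0.04 with PCL@PDA, beside 0.006 and 0.009 over all genes.

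Both comparisons share the Control libraries. The members called higher in both were Hspa8, Hsph1, Hspb8, Hspe1, Dnaja1, Stip1 and Fkbp4, and those called lower in both were Hspa4l, Hspa9, Fkbp5, Cct4 and Cct5. The material's 2 libraries lay on 1 side of both Control libraries for 27 of the 40 members with PVDF@PDA, where 58.5% of all genes did so, and for 25 with PCL@PDA, where 56.2% did. The called members, 12 with PVDF@PDA and 18 with PCL@PDA, were all among these and had the same sign within batch 1 and within batch 3, but so many other genes do not overlap that this says little about them. The counts moved with single libraries. With PVDF@PDA they were 11 higher and 7 lower without PCL@PDA replicate 1 and without PCL@PDA replicate 3, 6 higher and 3 lower without PVDF@PDA replicate 1, 7 higher and 3 lower without PVDF@PDA replicate 3, and 6 higher and 1 lower without Control replicate 1. The members gained without a PCL@PDA library were Hsp90ab1, Dnaja2, Ahsa1 and Hsf2, called higher, and Cct2 and Dnajb4, called lower. With PCL@PDA they were 12 higher and 12 lower without PCL@PDA replicate 1, 7 higher and 4 lower without Control replicate 1 and 7 higher and 7 lower without Control replicate 3. Scaling by library totals alone gave 11 members higher and 4 lower with PVDF@PDA and 13 higher and 6 lower with PCL@PDA; over all genes it turned the balance, to 1164 higher and 879 lower with PVDF@PDA, against 884 and 1158 under the scaling used here, and to 1482 higher and 1070 lower with PCL@PDA, against 1142 and 1474.

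**Figure D1:**
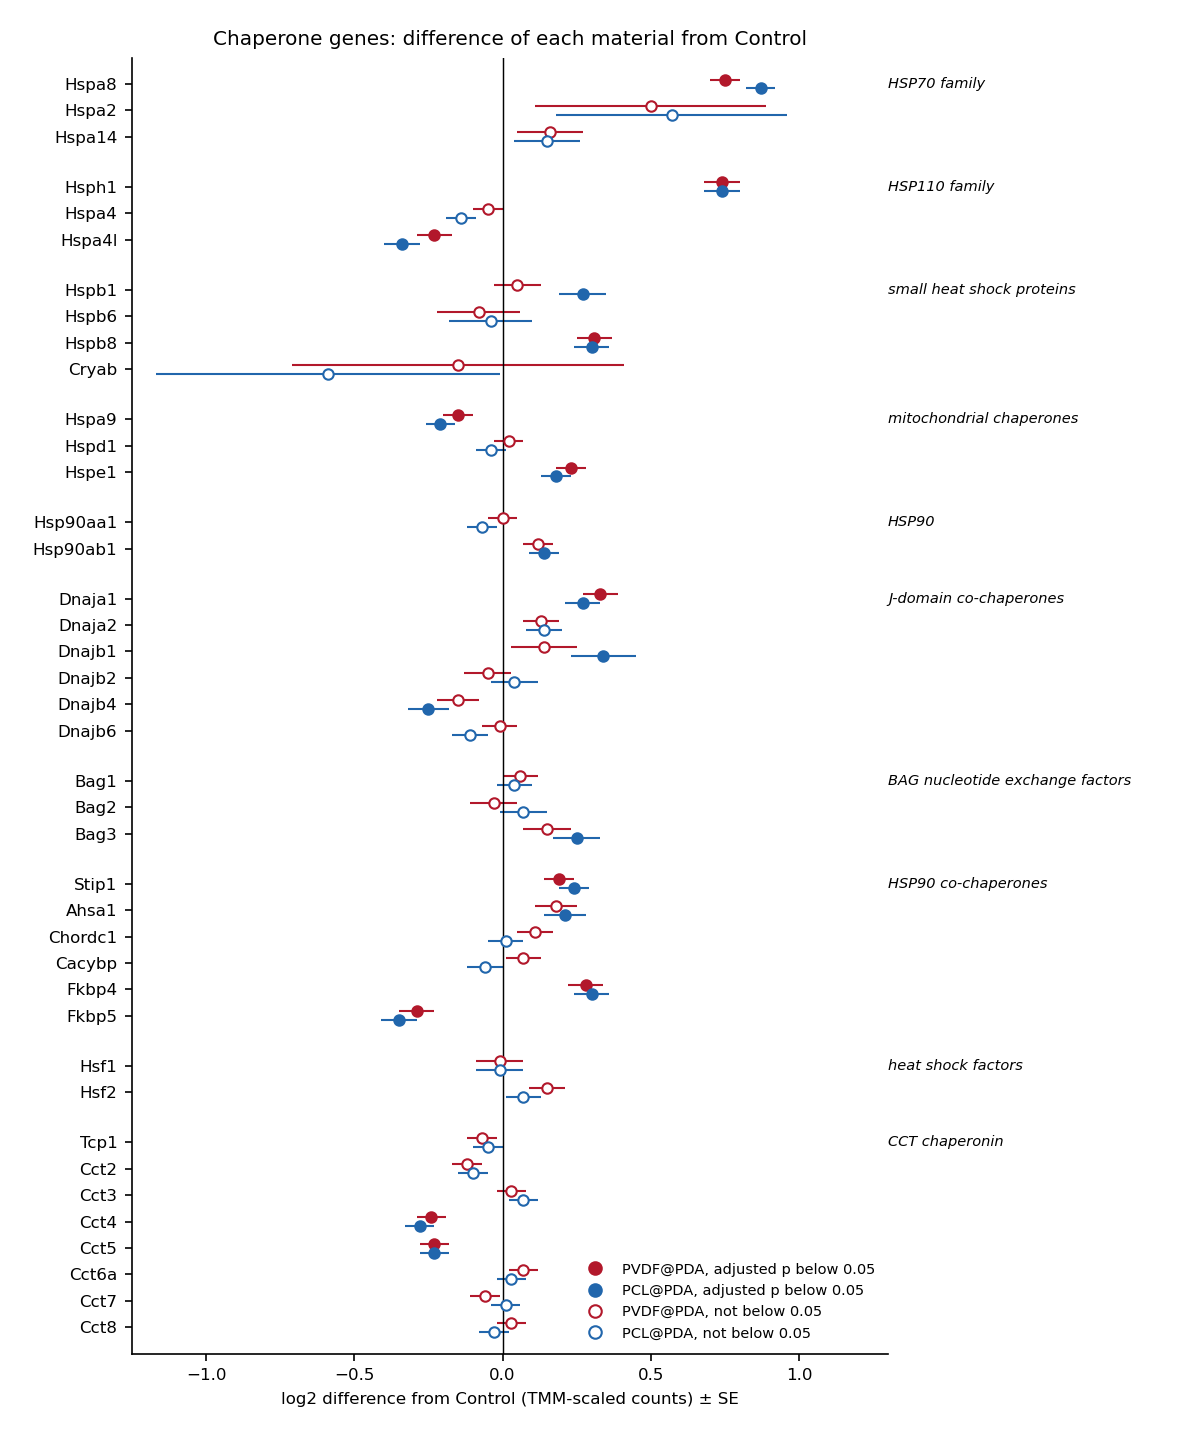
Log2 difference from Control with its standard error (x axis) for the 40 tested members, in the order of their roles (y axis); PVDF@PDA is red and drawn above PCL@PDA in blue, and filled points have an adjusted p below 0.05. Hspa8 and Hsph1 lie between 0.74 and 0.87 with both materials, and every other filled point lies between -0.35 and 0.34.

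Heat shock factors bind arrays of the unit nGAAn in alternating orientation, and such arrays were looked for in the 300 bases from 250 before to 50 after each gene's start. RefSeq windows of the GRCr8 build, which is not the build of the counts, were matched for 36 of the 42 members. At least 1 exact pair of adjoining units, GAANNTTC or TTCNNGAA, read on either strand, was present in 21 of these 36 windows (58.3%), beside 15.9% of all 33469 windows and 12.2% of the 12114 windows of tested genes. Runs of at least 3 exact units, each of which also contains at least 2 overlapping pairs, were present in 7 of 36 windows (19.4%), beside 0.798% of all windows and 0.479% of those of tested genes. Genes of this family are known targets of these factors, and a match is a stretch of letters, not a measured site.

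The 7 windows with such a run are shown because they include those of Hspa8 and Hsph1; the same 4 members called higher, Hspa8, Hsph1, Hspe1 and Dnaja1, have one among the 7 called higher with PVDF@PDA and among the 12 with PCL@PDA, and Cct4 has one among those called lower with each. Each line is a 30-base stretch in the direction of its gene, with the run of units in capitals.
Hspa8, 213 bases before the start, chr8:50080292-50080321 (+): ggcgagcgtGAAAGTTCCAGAAcgctgcgg
Hspa8, 55 bases before the start, chr8:50080450-50080479 (+): gcggaacccTTCTGGAAGGTTCtaagacag
Hsph1, 36 bases before the start, chr12:10427323-10427352 (+): tgccgcagaTTCTGGAAAGTTCtcctcagt
Hspe1, 65 bases before the start, chr9:64084256-64084285 (+): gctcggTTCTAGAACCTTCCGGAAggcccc
Dnaja1, 9 bases after the start, chr5:60638404-60638433 (+): ggccgggcgGAACTTTCCAGAAcgctcggt
Chordc1, 10 bases after the start, chr8:23650827-23650856 (+): accgGAACGTTCGGGAAGATTCCTGAAgca
Cct4, 25 bases after the start, chr14:101193073-101193102 (+): ggcgtcgctTTCTGGAAGGTTCgtggaggc
The Hspe1 run is also that of Hspd1, whose gene is read from the other strand and starts 242 bases away from it. Hspa8 alone had 2 runs, and Chordc1 had the longest, with 5 units. Members with a run did not all move: Hspd1 and Chordc1 were called with neither material, and Cct4 was lower with both materials. Pairs of units were common in members called either way. With PVDF@PDA they were in 7 of 7 windows of members called higher, 4 of 5 called lower and 10 of 23 not called. With PCL@PDA these were 10 of 12, 4 of 5 and 7 of 18. The part of pairs or runs in the differences was not tested.

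Among HSP70 genes, Hspa8, which encodes the constitutive HSC70 that folds new proteins and uncoats clathrin vesicles, was 1251 and 1227 CPM in PVDF@PDA, 1319 and 1367 CPM in PCL@PDA, and 744 and 725 CPM in Control. All 4 libraries with a material were far above both Control libraries. Its log2 difference was 0.75 ± 0.05 (SE) with PVDF@PDA, or 1.69-fold (adjusted p = 5.91e-18), and 0.87 ± 0.05 with PCL@PDA, or 1.83-fold (adjusted p = 1.98e-20). Within batch 1 it was 0.75 with PVDF@PDA and 0.83 with PCL@PDA, and within batch 3 it was 0.76 with PVDF@PDA and 0.92 with PCL@PDA. By length-scaled level (FPKM), Hspa8 ranked 98th and 97th of all listed genes in PVDF@PDA, 94th and 91st in PCL@PDA, and 162nd and 167th in Control. GRCr8 lists 33 pseudogenes of Hspa8 and the count table holds none of them, so how reads shared with those copies were counted is not known. The same holds for 4 pseudogenes of Dnaja1, 2 of Hspa9 and 1 each of Hspe1, Stip1 and Cct5.

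The stress-inducible HSP70 genes, in contrast, had few counted reads. Hspa1b had 10 and 7 reads in PVDF@PDA, 9 and 1 reads in PCL@PDA, and 0 and 4 reads in Control. The locus that the table calls LOC108348108 and describes as heat shock protein 1A had 2 and 4 reads in PVDF@PDA, 4 and 2 reads in PCL@PDA, and 0 and 1 reads in Control. The names of this pair differ between builds: the gene that the table calls Hspa1b is Hspa1a in GRCr8, and LOC108348108 is Hspa1b there. Neither passed the filter on low counts, and no fold is given for either. How reads that match both genes of the pair were counted is not known, so their counts may be too low.

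Other HSP70 relatives did not pass the test. Hspa2, a member known for its role in spermatogenesis, was 2 and 1.61 CPM in PVDF@PDA, 1.88 and 1.93 CPM in PCL@PDA, and 1.35 and 1.21 CPM in Control. Neither material overlapped Control, but its log2 differences of 0.50 ± 0.39 with PVDF@PDA and 0.57 ± 0.39 with PCL@PDA had adjusted p of 0.442 and 0.339. Hspa14, which encodes a ribosome-associated HSP70, differed by 0.16 ± 0.11 with PVDF@PDA and 0.15 ± 0.11 with PCL@PDA, and passed in neither.

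**Figure D2:**
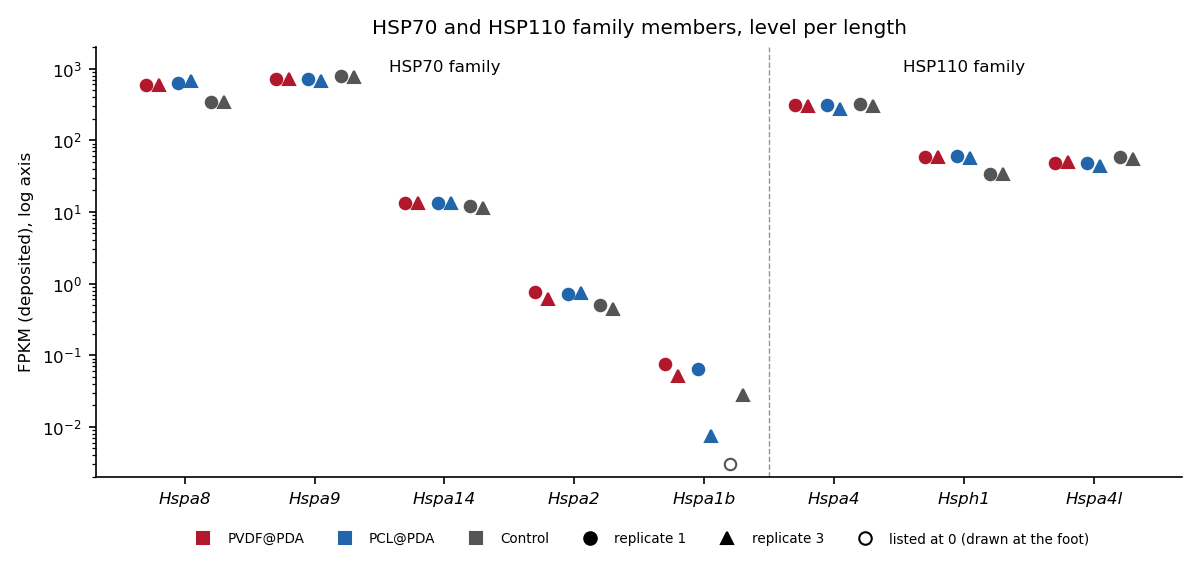
FPKM on a log axis (y) of HSP70 and HSP110 genes (x) in every library, with PVDF@PDA in red, PCL@PDA in blue and Control in grey, replicate 1 as circles and replicate 3 as triangles. Hspa8 and Hsph1 sit higher in all 4 libraries with a material, and Hspa1b lies at or under 0.0755 FPKM in all 6 libraries.

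The HSP110 proteins release ADP from HSP70 and so reset its cycle, and their 3 genes went different ways. Hsph1, which encodes HSP105, was 212 and 207 CPM in PVDF@PDA, 215 and 202 CPM in PCL@PDA, and 126 and 125 CPM in Control. The material libraries were again all above the Control pair, with a log2 difference of 0.74 ± 0.06 with PVDF@PDA (adjusted p = 6.06e-15) and 0.74 ± 0.06 with PCL@PDA (adjusted p = 6.39e-15). Hspa4l, its close relative, fell: it was 163 and 168 CPM in PVDF@PDA, 163 and 145 CPM in PCL@PDA, and 202 and 186 CPM in Control. The log2 difference was -0.23 ± 0.06 with PVDF@PDA (adjusted p = 0.0049) and -0.34 ± 0.06 with PCL@PDA (adjusted p = 3.27e-05). The level per length of Hsph1 over that of Hspa4l was thus 1.22 and 1.15 in PVDF@PDA and 1.24 and 1.31 in PCL@PDA, against 0.583 and 0.628 in Control, so the order of the pair was turned. Hspa4, the most abundant of the 3 per length at 275 to 319 FPKM, differed by -0.05 ± 0.05 with PVDF@PDA and by -0.14 ± 0.05 with PCL@PDA (adjusted p = 0.0523), and passed in neither. With the batch as a block Hspa4 passed with PCL@PDA (adjusted p = 0.00419), as it did without PCL@PDA replicate 1 (8.16e-06) and without Control replicate 3 (0.0454). The Hspa4l call with PVDF@PDA was lost without Control replicate 1 (adjusted p = 0.17), without PVDF@PDA replicate 1 (0.0841) and in limma on log2(FPKM + 1) (0.112).

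J-domain proteins hand clients to HSP70 and start its ATP cycle. Dnaja1, a type A member that works with HSC70, was 315 and 312 CPM in PVDF@PDA, 318 and 282 CPM in PCL@PDA, and 262 and 237 CPM in Control. It rose with both materials, by 0.33 ± 0.06 on the log2 scale with PVDF@PDA (adjusted p = 2.14e-05) and by 0.27 ± 0.06 with PCL@PDA (adjusted p = 0.000447), and the PCL@PDA call was lost without Control replicate 3 (adjusted p = 0.0554). Dnajb1, the HSP40 that heat shock induces, was 21.1 and 20.9 CPM in PVDF@PDA, 23.4 and 25 CPM in PCL@PDA, and 18.7 and 19.5 CPM in Control. It rose with PCL@PDA (log2 difference 0.34 ± 0.11, adjusted p = 0.0233) and differed by 0.14 ± 0.11 with PVDF@PDA (adjusted p = 0.468). Dnajb4, a further HSP40 of the same class, fell with PCL@PDA (-0.25 ± 0.07, adjusted p = 0.00603) and differed by -0.15 ± 0.07 with PVDF@PDA (adjusted p = 0.125). Both PCL@PDA calls depended on single libraries: that of Dnajb1 was lost without PCL@PDA replicate 3 (0.135), Control replicate 1 (0.178) or Control replicate 3 (0.0777), and that of Dnajb4 without PCL@PDA replicate 3 (0.0879), without Control replicate 1 (0.0927) and in limma on log2(FPKM + 1) (0.0733). Dnaja2, Dnajb2 and Dnajb6 did not pass with either material, with log2 differences between -0.11 and 0.14, although Dnajb6 passed with PCL@PDA without PCL@PDA replicate 1 (-0.21, adjusted p = 0.0064). With the batch as a block, Dnaja2 passed with PVDF@PDA (0.13, adjusted p = 0.0345) and with PCL@PDA (0.14, adjusted p = 0.0167), and without PCL@PDA replicate 3 it passed with PCL@PDA (0.23, adjusted p = 0.000625).

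BAG proteins are a second kind of factor that releases nucleotide from HSP70, and 1 of their 3 genes was called, with PCL@PDA. Bag3, which also links HSP70 to small heat shock proteins and to autophagy, was 57.2 and 49.1 CPM in PVDF@PDA, 55.6 and 57.9 CPM in PCL@PDA, and 45.7 and 49.7 CPM in Control. PVDF@PDA replicate 3 overlapped with Control, whereas both PCL@PDA libraries lay above it. Bag3 rose with PCL@PDA (log2 difference 0.25 ± 0.08, adjusted p = 0.0231) and differed by 0.15 ± 0.08 with PVDF@PDA (adjusted p = 0.211). The call was lost without PCL@PDA replicate 3 (0.0864), without Control replicate 1 (0.267), in DESeq2 (0.0542) and in limma on log2(FPKM + 1) (0.0736). Bag1 and Bag2 did not pass, with log2 differences between -0.03 and 0.07.

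Small heat shock proteins hold unfolding proteins without using ATP. Hspb8, which works in a complex with BAG3 and is mutated in inherited motor neuropathies in humans, was 103 and 104 CPM in PVDF@PDA, 101 and 104 CPM in PCL@PDA, and 82.8 and 83.9 CPM in Control. The material libraries lay close together and clear of Control, and the log2 difference was 0.31 ± 0.06 with PVDF@PDA (adjusted p = 0.00032) and 0.30 ± 0.06 with PCL@PDA (adjusted p = 0.000336). Hspb1, which encodes HSP27, was 50.7 and 52.4 CPM in PVDF@PDA, 56.1 and 64.5 CPM in PCL@PDA, and 47.5 and 52.2 CPM in Control. It rose with PCL@PDA (0.27 ± 0.08, adjusted p = 0.0108) and overlapped Control with PVDF@PDA (0.05 ± 0.08, adjusted p = 0.746). PCL@PDA replicate 3 held its highest value, and the call was lost without that library (0.214), without Control replicate 1 (0.207) and in limma on log2(FPKM + 1) (0.0517). Hspb6 differed by -0.08 ± 0.14 with PVDF@PDA and -0.04 ± 0.14 with PCL@PDA. Cryab, the αB-crystallin gene, had only 23 and 38 reads in PVDF@PDA, 19 and 27 in PCL@PDA, and 20 and 49 in Control, too spread to show a difference at this depth.

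Of the HSP90 pair, Hsp90ab1, the constitutive cytosolic form, was the most abundant cytosolic member per length, at 755 and 749 FPKM in PVDF@PDA, 765 and 767 FPKM in PCL@PDA, and 677 and 671 FPKM in Control. In CPM it was 1756 and 1737 in PVDF@PDA, 1784 and 1759 in PCL@PDA, and 1618 and 1594 in Control, without overlap. It rose with PCL@PDA (log2 difference 0.14 ± 0.05, adjusted p = 0.0242) and differed by 0.12 ± 0.05 with PVDF@PDA (adjusted p = 0.068). The PVDF@PDA difference passed with the batch as a block (adjusted p = 0.0146), and the PCL@PDA call was lost without PVDF@PDA replicate 1 (0.0616), PVDF@PDA replicate 3 (0.0619), Control replicate 1 (0.148) or Control replicate 3 (0.205). Hsp90aa1, the inducible form, differed by 0.00 ± 0.05 with PVDF@PDA and -0.07 ± 0.05 with PCL@PDA, and without PCL@PDA replicate 1 the PCL@PDA difference passed at -0.15 (adjusted p = 0.0105). GRCr8 lists 23 pseudogenes of Hsp90ab1 and 16 of Hsp90aa1.

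HSP90 co-chaperones included the paired immunophilins Fkbp4 and Fkbp5, which compete for steroid receptors bound to HSP90. Fkbp4, whose product FKBP52 favours hormone binding and transport to the nucleus, was 172 and 170 CPM in PVDF@PDA, 168 and 180 CPM in PCL@PDA, and 144 and 139 CPM in Control. It rose by 0.28 ± 0.06 on the log2 scale with PVDF@PDA (adjusted p = 0.000374) and by 0.30 ± 0.06 with PCL@PDA (adjusted p = 0.000101). Fkbp5, whose product FKBP51 lowers hormone binding and whose gene glucocorticoids induce, was 130 and 116 CPM in PVDF@PDA, 122 and 113 CPM in PCL@PDA, and 157 and 143 CPM in Control. It fell by 0.29 on the log2 scale with PVDF@PDA (SE 0.06, adjusted p = 0.000728) and by 0.35 with PCL@PDA (SE 0.06, adjusted p = 4e-05). Per length, Fkbp4 over Fkbp5 was 2.56 and 2.84 in PVDF@PDA and 2.64 and 3.08 in PCL@PDA, against 1.76 and 1.86 in Control, so the 2 genes moved apart in every library with a material. In limma on log2(FPKM + 1) the Fkbp5 call with PVDF@PDA was lost (adjusted p = 0.0898), as it was without PVDF@PDA replicate 3 (0.0906) or Control replicate 1 (0.0652).

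Stip1, the HOP adaptor that passes clients from HSP70 to HSP90, was 423 and 418 CPM in PVDF@PDA, 451 and 420 CPM in PCL@PDA, and 368 and 371 CPM in Control. It rose with both, by 0.19 ± 0.05 with PVDF@PDA (adjusted p = 0.00799) and 0.24 ± 0.05 with PCL@PDA (adjusted p = 0.000493). The PVDF@PDA call was lost when any 1 of the PVDF@PDA or Control libraries was left out, with adjusted p between 0.0732 and 0.112. Ahsa1, which speeds the ATPase of HSP90, was 95.4 and 83.2 CPM in PVDF@PDA, 92.9 and 89.6 CPM in PCL@PDA, and 81.5 and 76.2 CPM in Control. Both materials lay above Control, and it rose with PCL@PDA (0.21 ± 0.07, adjusted p = 0.0235) and differed by 0.18 ± 0.07 with PVDF@PDA (adjusted p = 0.0685). Under the batch block the PVDF@PDA difference of Ahsa1 passed (adjusted p = 0.0345), as it did without PVDF@PDA replicate 3 (0.27, adjusted p = 0.0338), and the PCL@PDA call was lost without Control replicate 3 (0.252), in DESeq2 (0.0563) and in limma on log2(FPKM + 1) (0.0601). Chordc1 and Cacybp did not pass, with log2 differences between -0.06 and 0.11, although Cacybp passed with PCL@PDA without PCL@PDA replicate 1 (-0.17, adjusted p = 0.00918).

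**Figure D3:**
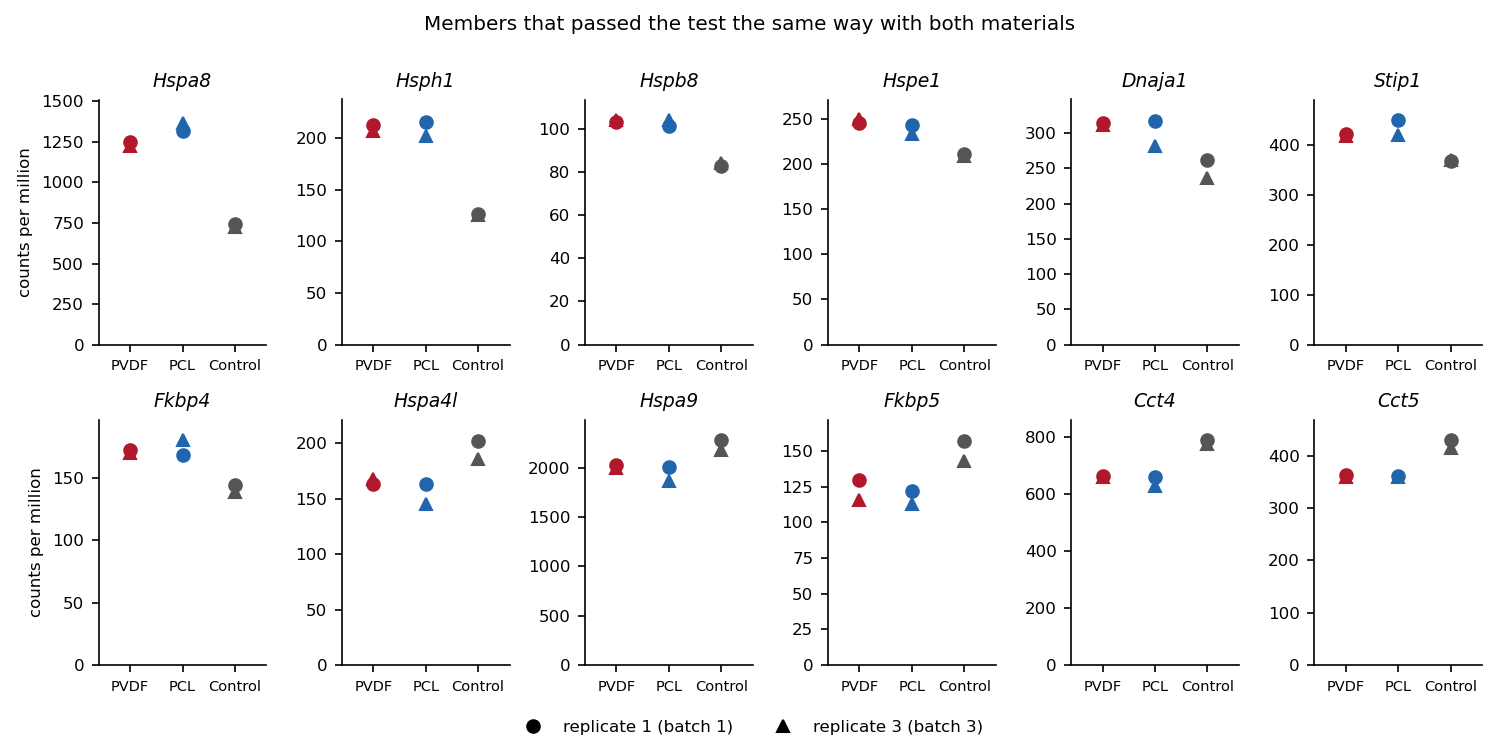
TMM-scaled CPM (y axis, from 0) in each library of PVDF@PDA, PCL@PDA and Control (x axis) for the 12 members that passed the test the same way with both materials; circles are replicate 1 and triangles replicate 3. In each panel the 4 material libraries lie on 1 side of both Control libraries.

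The mitochondrial chaperones divided. Hspa9, the mitochondrial HSP70 that pulls proteins through the inner membrane, was 2024 and 2000 CPM in PVDF@PDA, 2005 and 1861 CPM in PCL@PDA, and 2282 and 2184 CPM in Control. It fell with both materials, by 0.15 on the log2 scale with PVDF@PDA (SE 0.05, adjusted p = 0.0225) and by 0.21 with PCL@PDA (SE 0.05, adjusted p = 0.000927). Hspe1, the 10 kDa lid of the mitochondrial chaperonin, rose: it was 245 and 249 CPM in PVDF@PDA, 243 and 233 CPM in PCL@PDA, and 211 and 209 CPM in Control. The log2 difference was 0.23 ± 0.05 with PVDF@PDA (adjusted p = 0.00143) and 0.18 ± 0.05 with PCL@PDA (adjusted p = 0.0136). Hspd1, the HSP60 barrel that Hspe1 closes and whose gene shares the start region printed above, differed by 0.02 ± 0.05 with PVDF@PDA and -0.04 ± 0.05 with PCL@PDA. Per length, Hspe1 over Hspd1 was 1.32 and 1.37 in PVDF@PDA and 1.3 and 1.4 in PCL@PDA, against 1.12 and 1.21 in Control. The annotated spans of the 2 genes overlap in GRCr8, and whether reads were counted by strand is not given in the sources used here, so their reads may have been mixed where they overlap. The Hspa9 call with PVDF@PDA was lost without PVDF@PDA replicate 1 (0.135), PVDF@PDA replicate 3 (0.212) or Control replicate 1 (0.289), with library totals alone (0.0599) and in limma on log2(FPKM + 1) (0.183); with PCL@PDA it was lost without Control replicate 1 (0.069) and in limma (0.0669). The Hspe1 call with PCL@PDA was lost without Control replicate 1 (0.104) or Control replicate 3 (0.118), and Hspd1 passed with PCL@PDA at -0.13 without PCL@PDA replicate 1 (adjusted p = 0.0354).

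The level of Hspa8 lay under that of Hspa9 in every library, with a narrower gap in the libraries with a material. Per length, Hspa8 over Hspa9 was 0.833 and 0.827 in PVDF@PDA and 0.887 and 0.99 in PCL@PDA, against 0.44 and 0.447 in Control. Hspa8 over Hsp90ab1 was 0.792 and 0.785 in PVDF@PDA and 0.822 and 0.864 in PCL@PDA, against 0.511 and 0.505 in Control. The reads of all 41 listed members made up 1.53% and 1.51% of a PVDF@PDA library, 1.54% and 1.48% of a PCL@PDA library, and 1.45% and 1.42% of a Control library. Without Hspa8 these shares were 1.4% and 1.39% in PVDF@PDA, 1.4% and 1.34% in PCL@PDA, and 1.38% and 1.35% in Control, so PCL@PDA then overlapped Control.

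The transcription factors themselves did not pass. Hsf1, the main heat shock factor, was 45.9 and 51.2 CPM in PVDF@PDA, 46.9 and 50.4 CPM in PCL@PDA, and 46.9 and 51.1 CPM in Control, and its log2 difference was -0.01 ± 0.08 with PVDF@PDA and -0.01 ± 0.08 with PCL@PDA. Hsf1 acts mainly after its protein is activated, which RNA levels do not show. Hsf2, a related factor, differed by 0.15 ± 0.06 with PVDF@PDA (adjusted p = 0.0931) and by 0.07 ± 0.06 with PCL@PDA (adjusted p = 0.444).

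The 8 subunits of the CCT chaperonin form rings with 1 copy of each, and the genes of Cct4 and Cct5 passed the test. Cct4 fell with both materials: it was 664 and 661 CPM in PVDF@PDA, 660 and 629 CPM in PCL@PDA, and 790 and 777 CPM in Control. The log2 difference was -0.24 ± 0.05 with PVDF@PDA (adjusted p = 0.000252) and -0.28 ± 0.05 with PCL@PDA (adjusted p = 1.89e-05). Cct5 fell too, with 364 and 359 CPM in PVDF@PDA, 362 and 359 CPM in PCL@PDA, and 431 and 415 CPM in Control. Its log2 difference was -0.23 ± 0.05 with PVDF@PDA (adjusted p = 0.00108) and -0.23 ± 0.05 with PCL@PDA (adjusted p = 0.000721), and the PVDF@PDA call was lost without Control replicate 1 (adjusted p = 0.0624). The other 6 subunits, Tcp1, Cct2, Cct3, Cct6a, Cct7 and Cct8, passed with neither material, with log2 differences between -0.12 and 0.07. Cct2 had the lowest of these, at -0.12 ± 0.05 with PVDF@PDA, which passed with the batch as a block (adjusted p = 0.0325), and at -0.10 ± 0.05 with PCL@PDA, which passed without PCL@PDA replicate 1 (-0.15, adjusted p = 0.0113).

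Per length, Cct4 was the highest subunit and Cct7 the lowest in every library. Cct4 was 316 and 316 FPKM in PVDF@PDA, 314 and 304 FPKM in PCL@PDA, and 366 and 363 FPKM in Control. Cct4 over the mean of the 6 subunits other than Cct4 and Cct5 was 1.49 and 1.48 in PVDF@PDA and 1.45 and 1.44 in PCL@PDA, against 1.74 and 1.72 in Control. The highest over the lowest subunit was 2.08 and 2.04 in PVDF@PDA and 2.02 and 1.81 in PCL@PDA, against 2.35 and 2.34 in Control, so the 8 levels lay closer together with both materials.

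**Figure D4:**
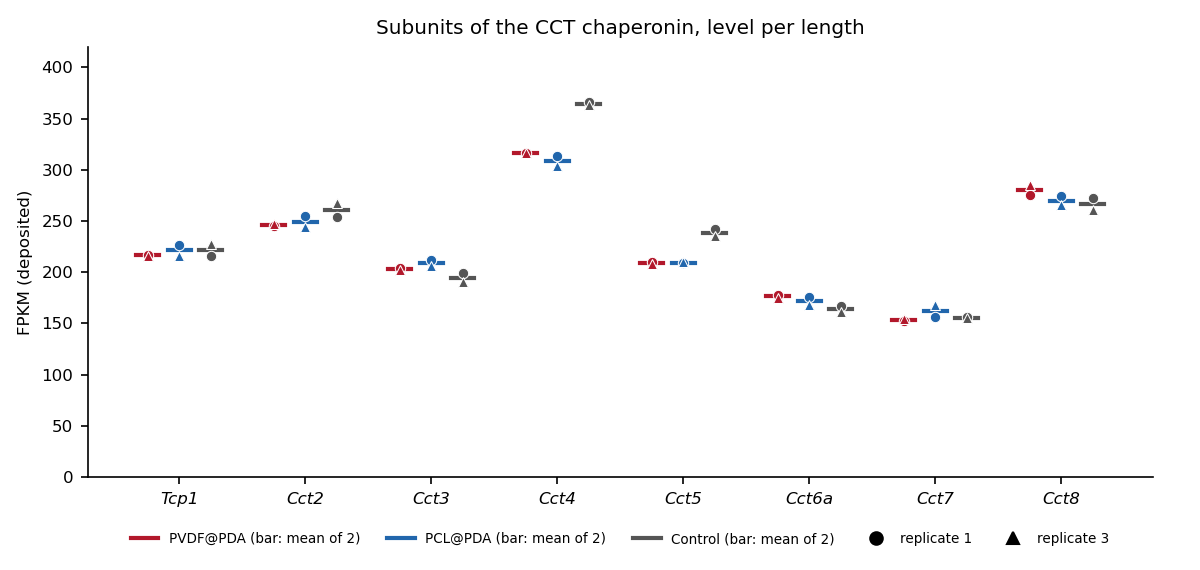
FPKM (y axis, from 0) of the 8 CCT subunits (x axis) in PVDF@PDA (red), PCL@PDA (blue) and Control (grey); points are libraries and bars are means of 2. Cct4 and Cct5 are lower in all 4 material libraries than in both Control libraries, and the 8 subunits span 152 to 366 FPKM.

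Clients and cofactors of the chaperonin were read beside it. Of 14 genes for actins, tubulins and tubulin-folding cofactors, 2 rose and 6 fell with PVDF@PDA and 2 rose and 5 fell with PCL@PDA, with medians of -0.10 with PVDF@PDA and -0.06 with PCL@PDA, where 6.79% of all genes rose and 8.9% fell with PVDF@PDA and 8.77% rose and 11.3% fell with PCL@PDA. The genes that rose were the actins Actb and Actg1, and those that fell were tubulins and tubulin cofactors. Actg1, which encodes γ-actin, was 1536 and 1585 CPM in PVDF@PDA, 1598 and 1787 CPM in PCL@PDA, and 1178 and 1302 CPM in Control, a log2 difference of 0.33 ± 0.05 with PVDF@PDA (adjusted p = 6.67e-06) and 0.45 ± 0.05 with PCL@PDA (adjusted p = 8.62e-09). Tuba1a, an α-tubulin gene, was 79.8 and 82.3 CPM in PVDF@PDA, 86.9 and 86.6 CPM in PCL@PDA, and 118 and 116 CPM in Control, a log2 difference of -0.53 ± 0.06 with PVDF@PDA (adjusted p = 9.34e-09) and -0.43 ± 0.06 with PCL@PDA (adjusted p = 7.87e-07). Tubb5, a β-tubulin gene, fell by 0.31 on the log2 scale with PVDF@PDA (adjusted p = 8.02e-06), and Actb, which encodes β-actin, rose by 0.28 ± 0.05 with PCL@PDA (adjusted p = 1.19e-05). Actins and tubulins are large families of near-identical copies, so reads may have been split between members. Of 9 prefoldin and phosducin-like genes tested, whose products bring clients to the chaperonin, 1 was called, Pfdn1, which fell with PCL@PDA (-0.21 ± 0.06, adjusted p = 0.00409) and differed by -0.15 ± 0.06 with PVDF@PDA (adjusted p = 0.0513).

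Of 23 other HSP70 and HSP90 co-chaperones tested, 1 fell with PVDF@PDA, where 15.7% of all genes were called, and 1 rose and 3 fell with PCL@PDA, where 20.1% were. Dnajc2, a J-domain protein at the ribosome, fell with both, by 0.25 on the log2 scale with PVDF@PDA (adjusted p = 0.00531) and by 0.32 with PCL@PDA (adjusted p = 0.000318). Dnajc7 (-0.21 ± 0.07, adjusted p = 0.0186) and Bag5 (-0.28 ± 0.09, adjusted p = 0.0246) fell with PCL@PDA. Of 7 ubiquitin and other stress-related genes, 1 rose with PVDF@PDA and 2 with PCL@PDA, where 6.79% and 8.77% of all genes were called higher. Ubb, a polyubiquitin gene, rose with both materials, by 0.27 ± 0.05 with PVDF@PDA (adjusted p = 5.3e-05) and 0.35 ± 0.05 with PCL@PDA (adjusted p = 3.5e-07). It was 703 and 726 CPM in PVDF@PDA, 729 and 779 CPM in PCL@PDA, and 603 and 578 CPM in Control. Sqstm1, the autophagy receptor p62, rose with PCL@PDA (0.15 ± 0.05, adjusted p = 0.0293), and Hspa5, the endoplasmic reticulum HSP70, passed with neither (-0.05 ± 0.05 with PVDF@PDA and -0.12 ± 0.05 with PCL@PDA).

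Between the 2 materials, the contrast that sets the piezoelectric against the other material, no chaperone gene passed the test. Of the 40 members 0 were called by edgeR, where 0.0615% of all genes were called, 0.0538% higher and 0.00768% lower with PVDF@PDA. DESeq2 and limma on FPKM also called 0 members, and 3 members (Hspa8, Hspb1 and Cacybp) had an unadjusted p below 0.05, as did 1105 of all genes. Hspb1 was the lowest of these, with a log2 difference of PVDF@PDA from PCL@PDA of -0.22 and a 95% interval of -0.39 to -0.06 (adjusted p = 0.424), and Hspa8 had -0.12 with an interval of -0.21 to -0.02 (adjusted p = 0.49). For Hsph1 the difference was 0.01 with an interval of -0.11 to 0.12. The whole interval lay within 0.25 log2 units of 0 for 32 of the 40 members and within 0.5 for 38; the exceptions to the wider bound were Hspa2 and Cryab, which had few reads. Over all genes the interval lay within 0.25 for 4695 and within 0.5 for 8999 of 13018. Those called against Control with PCL@PDA and not with PVDF@PDA were Hspb1, Hsp90ab1, Dnajb1, Bag3, Ahsa1 and Dnajb4, and none of them passed the test between the materials.

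A single library weighed on this contrast. Without PCL@PDA replicate 1, which leaves PCL@PDA replicate 3 alone, assumed to vary like the other groups, 8 members were called. Cacybp (0.24), Dnajb6 (0.20), Hsp90aa1 (0.15), Hspa4 (0.18), Hspa4l (0.19) and Hspd1 (0.15) were then higher and Hspa8 (-0.14) and Hspb1 (-0.32) lower with PVDF@PDA, with adjusted p between 0.00126 and 0.0378, and 827 of all genes were called. Without PCL@PDA replicate 3, 0 members and 2 of all genes were called. With the batch as a block, 0 members and 59 of all genes were called.

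**Figure D5:**
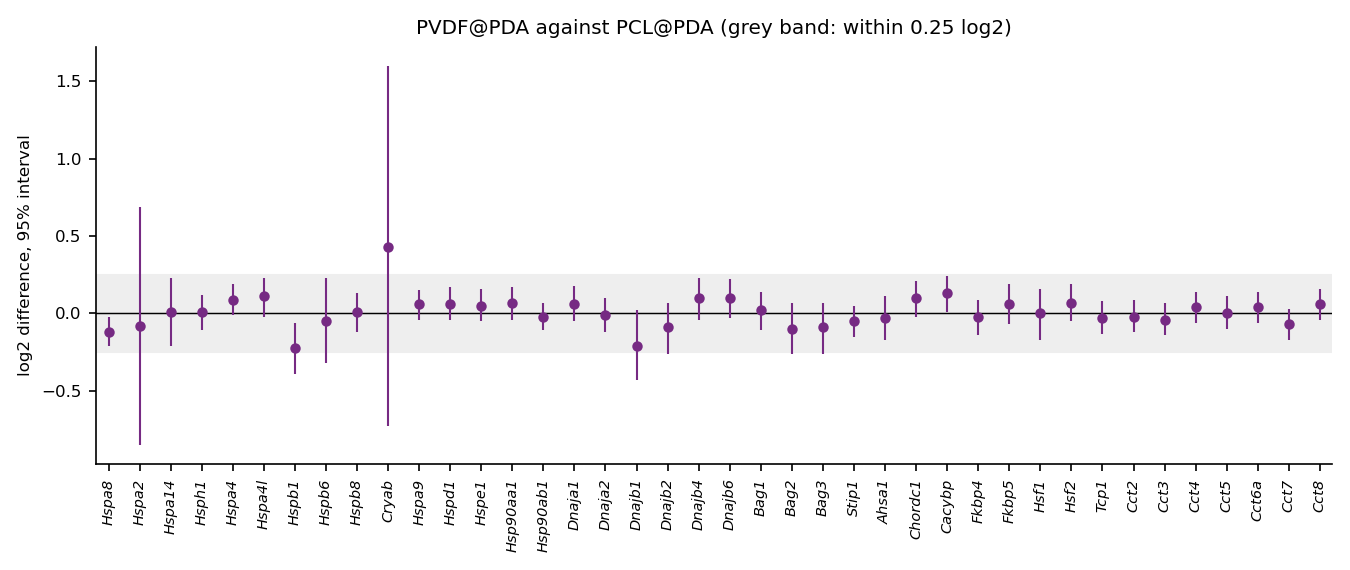
Log2 difference of PVDF@PDA from PCL@PDA with its 95% interval (y axis) for each of the 40 tested members (x axis); the grey band spans 0.25 log2 units on either side of 0. Intervals lie inside the band for 32 members, and the widest belong to Cryab and Hspa2.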

How the data were processed

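RNA was measured in 6 libraries of RSC96 cells prepared from DNase-treated total RNA, per the labels. The authors deposited whole-number read counts per gene and FPKM values, which scale counts by gene length and library size; the deposited FPKM and counts imply 1 length per gene for all 15690 genes that allow the check (relative tolerance 1e-04). Per the submitters' processing notes, the build was mRatBN7.2 and DESeq2 1.4.5 was used; the aligner, counter, annotation and strand setting were not given in the sources used here.

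Counts were fitted with edgeR 4.0.16 (R 4.3.3): filterByExpr kept 13018 of 16849 genes, TMM scaling was applied, and the quasi-likelihood test was run over all 6 libraries with 3 residual degrees of freedom and no batch term. The spread of each gene was drawn towards that of the other genes, with a median of 50.3 prior degrees of freedom. P-values were adjusted over all genes by Benjamini-Hochberg, with a threshold of 0.05. FPKM were used to give levels per length, to compare genes within a library and in limma 3.58.1, as log2(FPKM + 1) or log2(FPKM + 0.1). They are not TMM-scaled, so FPKM shown side by side for different groups rest on library totals. DESeq2 1.42.0 was a further alternative. The fit was also run on simulated data with 200 changed genes, as a check of the code only. Those data had no batch and no library that stood apart. The replicate numbers are batch numbers in the labels, so they pair the libraries; same-batch deviations correlated at -0.0283 (PVDF@PDA and PCL@PDA), 0.0441 (PVDF@PDA and Control) and 0.136 (PCL@PDA and Control). Intervals are 95% intervals.

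Members and gene lists were chosen with earlier results of these data known. Outside the members, the text names up to 3 genes with the smallest p of each list in each comparison with Control. Cell type markers and the glucocorticoid-responsive genes called with PVDF@PDA are named besides. RefSeq promoter windows of GRCr8 gave the sequences; protein sequences were not used here. A further Schwann cell marker is not reported here.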

Additional observations from a re-analysis of the deposited data

How the results depend on the processing

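Across 14 alternatives (another scaling, no filter on low counts, DESeq2, limma, a batch block, fits to the 4 libraries compared and each library left out in turn), no called difference changed sign. Called in all 14 were Hspa8, Hsph1, Hspb8, Hspe1, Dnaja1, Fkbp4 and Cct4 with PVDF@PDA, and Hspa8, Hsph1, Hspa4l, Hspb8, Stip1, Fkbp4, Fkbp5, Cct4 and Cct5 with PCL@PDA. With PVDF@PDA against Control, 11 members were called higher with library totals alone and 11 in a fit to the 4 libraries compared, and 2 were called lower in limma with either pseudocount; the causes were not tested. With 1 library left out, the count of members ran between 6 and 11 higher and 1 and 7 lower for PVDF@PDA against Control, 7 and 12 higher and 4 and 12 lower for PCL@PDA against Control, and 0 and 6 higher and 0 and 2 lower for PVDF@PDA against PCL@PDA. The replicate block gave 10 members higher and 6 lower with PVDF@PDA, 13 higher and 7 lower with PCL@PDA and 0 between the materials; beyond the calls given for Ahsa1, Cct2, Dnaja2, Hsp90ab1 and Hspa4 it changed no other call. With 2 libraries a group and few reads for Hspa1b, Hspa2 and Cryab, differences in these genes were not detectable at this depth.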

Other observations

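Because Fkbp5 is itself induced by glucocorticoids, 11 other genes known to respond to glucocorticoids, with the receptor gene Nr3c1 among them, were read beside it, and 10 had enough reads. They did not move in 1 direction: 4 rose and 3 fell with PVDF@PDA, and 4 rose and 3 fell with PCL@PDA, where 15.7% of all genes were called with PVDF@PDA and 20.1% with PCL@PDA. Whether glucocorticoids had a part in the fall of Fkbp5 was not tested. With PVDF@PDA, Sgk1, Dusp1, Mt1 and Mt2A rose. Those that fell with PVDF@PDA, as Fkbp5 did, were Cebpd, Tsc22d3 (-0.20 ± 0.07, adjusted p = 0.025) and Klf9 (-0.23 ± 0.08, adjusted p = 0.0326). Dusp1, a phosphatase that switches off MAP kinases, was 132 and 134 CPM in PVDF@PDA, 136 and 152 CPM in PCL@PDA, and 101 and 97.7 CPM in Control. Its log2 difference was 0.43 ± 0.06 with PVDF@PDA (adjusted p = 6.66e-07) and 0.54 ± 0.06 with PCL@PDA (adjusted p = 1.25e-09). The metallothionein gene Mt2A was 207 and 211 CPM in PVDF@PDA, 228 and 238 CPM in PCL@PDA, and 169 and 187 CPM in Control, and rose by 0.23 ± 0.06 with PVDF@PDA (adjusted p = 0.00338) and by 0.38 ± 0.06 with PCL@PDA (adjusted p = 7.59e-07). Mt1, its neighbour in function, rose by 0.55 ± 0.10 with PCL@PDA (adjusted p = 9.41e-05). Cebpd, a transcription factor of the acute phase, was lower, at 4.16 and 5.11 CPM in PVDF@PDA, 5.06 and 6.31 CPM in PCL@PDA, and 9.06 and 8.95 CPM in Control (log2 difference -0.96 ± 0.20 with PVDF@PDA, adjusted p = 0.000322).

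Of 10 genes for mitochondrial import and protein quality control, the surroundings of Hspa9 and Hspe1, 3 passed the test with PVDF@PDA and 1 with PCL@PDA, each of them lower, where 8.9% of all genes were called lower with PVDF@PDA and 11.3% with PCL@PDA. Dnaja3, the J-domain partner of Hspa9 in the matrix, was 57.2 and 63 CPM in PVDF@PDA, 58.1 and 57.7 CPM in PCL@PDA, and 74.8 and 66.4 CPM in Control. It fell with both, by 0.23 on the log2 scale with PVDF@PDA (adjusted p = 0.0292) and by 0.29 with PCL@PDA (adjusted p = 0.00452). Timm44, which tethers Hspa9 to the import channel, and Lonp1, a matrix protease, fell with PVDF@PDA, by 0.27 (adjusted p = 0.011) and by 0.18 (adjusted p = 0.0156).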
